A study of Homo sapiens with 15 samples.

Results

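The proteasome is the protease complex that degrades ubiquitin-tagged proteins, and its genes were followed here in BEAS-2B cells exposed to fine particulate matter (PM2.5). The set held 47 of the 58219 genes in the count table, taken by gene symbol with earlier results of these data known. It comprised 7 genes of the 20S alpha ring, 4 non-catalytic and 3 catalytic genes of the beta ring, 3 catalytic subunits of the immunoproteasome, 6 ATPases and 11 other subunits of the 19S regulator, 3 chaperones of 19S assembly, 5 genes of other caps and their inhibitor, and 5 chaperones of 20S assembly. All 47 passed edgeR's filter on low counts and were tested among 17599 genes. PSMA8, the alpha subunit of the testis, and PSMB11, a beta subunit of the thymus, were not members and did not exceed 0.0694 and 0.0903 CPM (counts per 1e6 counted reads) in any library.

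BEAS-2B is an immortalized human bronchial epithelial line, so that the experiments are repeats on 1 line and not on separate donors, and it was grown in serum-free medium on collagen-coated plates. The 5 groups had 3 libraries each, 1 from each of 3 independent experiments. They were vehicle control and PM2.5 at 1 or 30 µg/cm2, all for 24 h, and vehicle control and PM2.5 at 1 µg/cm2 given daily in a protocol of 7 days (called 7-day below). The PM2.5 was a water extract of filters from Beijing. The sample labels give 7 daily treatments and the methods give 6 with collection on day 7. Cells of the daily protocol were plated at a lower density and washed each day, so length of culture, density and washing cannot be told apart between the protocols.

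In the 26S proteasome, the 20S core is a barrel of stacked rings. The alpha rings gate its ends and the beta rings carry the proteolytic sites inside. The 19S regulator binds ubiquitin chains, removes them, and unfolds and threads the substrate with its ring of ATPases. In cells exposed to interferon gamma, PSMB8, PSMB9 and PSMB10 can replace the constitutive catalytic subunits PSMB5, PSMB6 and PSMB7, and the PSME1 and PSME2 cap (PA28) rises with them, which alters the peptides available to MHC class I. When proteasome activity is limiting, the transcription factor NFE2L1 is known to raise subunit genes through antioxidant response elements.

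Between 21460981 and 34724765 reads were counted per library. Members took 0.688% to 0.937% of the counts in the 24-h libraries and 0.494% to 0.585% in the 7-day libraries, with no overlap. In the 24-h experiments 1, 2 and 3 the members held 0.721%, 0.782% and 0.800% of counts in the control, 0.688%, 0.871% and 0.756% after 1 µg/cm2, and 0.719%, 0.937% and 0.736% after 30 µg/cm2. Experiment 2 was thus the highest in both treated groups, while its control lay between the other controls. The median coefficient of variation of a member was 12.5%, 22.5% and 25.1% in the 24-h control, 1 µg/cm2 and 30 µg/cm2 groups, highest for PSMB9 in all 3, against 3.77% and 4.86% in the 7-day control and treated groups. Results at 24 h are therefore also given by experiment or without experiment 2. The latter keeps experiments 1 and 3 only at 24 h, and the choice rests on these same values. All 7 epithelial markers (KRT5, KRT8, KRT18, KRT19, EPCAM, CDH1 and TP63) were present in every library. The leukocyte markers PTPRC and CD3E and the endothelial markers PECAM1, VWF and CDH5 stayed at or below 0.263 CPM, while CD14 reached 23.5 CPM and the 5 fibroblast markers summed to between 52.6 and 121 CPM.

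**Figure D1:**
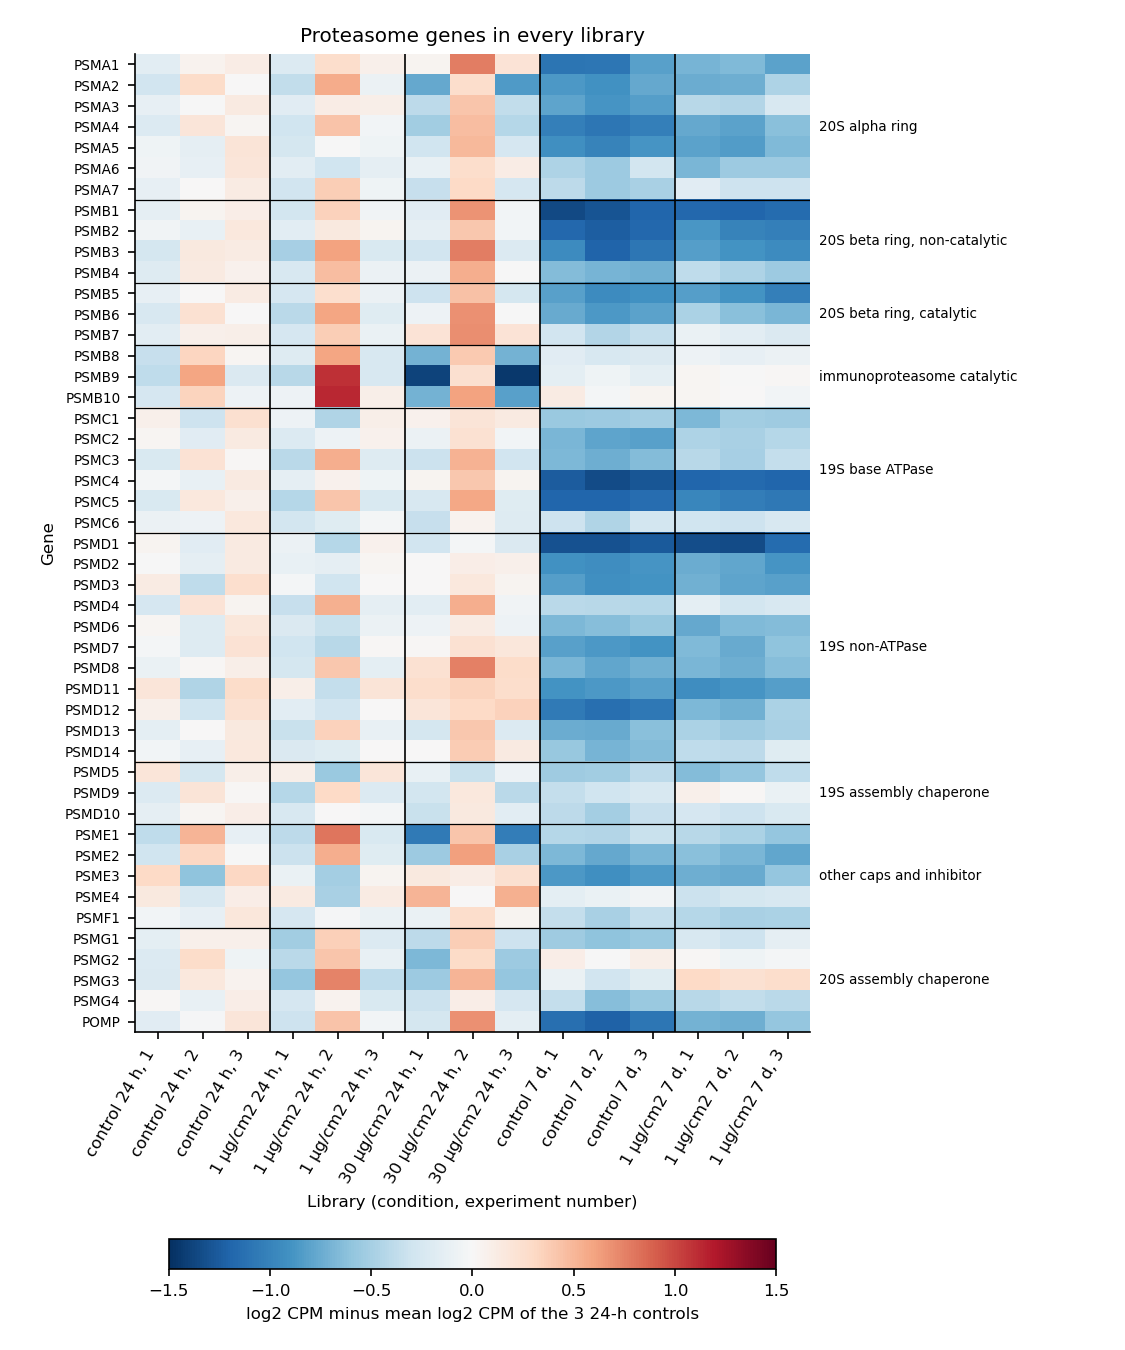
Heat map of the 47 proteasome genes (rows, by class) in the 15 libraries (columns, by condition and experiment number). Colour is log2 CPM minus the mean log2 CPM of the 3 24-h controls. The 6 columns of the 7-day protocol are blue for most core and 19S genes, the immunoproteasome rows are not, and the experiment 2 columns of the 24-h treatments are redder than those of experiments 1 and 3.

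Per kb of exon, the catalytic subunits were expressed at like levels. In the 24-h control, PSMB5 had 121 ± 10.4 RPKM, PSMB6 130 ± 20.97 and PSMB7 132 ± 12.5 (SD, n = 3), differences within the spread between experiments. The immunoproteasome subunits were far lower, with 13.6 ± 3.11 RPKM for PSMB8, 8.64 ± 3.35 for PSMB9 and 5.12 ± 1.10 for PSMB10. The highest member was the alpha subunit PSMA7 at 288 ± 24.8 RPKM, and the lowest were PSMG4, a 20S assembly chaperone, at 2.16 ± 0.162 and PSMD9, a chaperone of the 19S base, at 2.21 ± 0.311. Such levels divide by the length of all annotated exons of a gene. They are uncertain for PSMC1, which shared 75.8% of its exon bases with NRDE2 on the other strand, since it is not stated whether counting used strand. They are also uncertain for PSMA1, PSMA2, PSMB8, PSMB10, PSMD7 and PSMD9, which shared 21.2% to 34.8% with other genes, on the same strand for PSMA1 and PSMB10, on the other for PSMB8 and PSMD7 and on both for PSMA2 and PSMD9. PSME2 has 6 named pseudogenes, which took 2759 reads over all libraries.

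The clearest difference lay between the untreated cells of the protocols. Of the 47 members, 27 were lower and 0 higher in the 7-day control than in the 24-h control, at an adjusted p under 0.05 together with a log2 fold change of 0.6 or more in size (quasi-likelihood test of edgeR, adjusted by Benjamini-Hochberg over all genes, as for every adjusted p here). Among all genes tested, 10.8% were lower by this rule. By adjusted p alone 34 members were lower, against 14.6% of all genes. In 40 members the 3 libraries of the 7-day control all lay below the 3 of the 24-h control, against 24.7% of all genes. The median log2 fold change was -0.71 over the members and 0.02 over all genes. DESeq2 called 28 members lower and 0 higher, and the share of all genes it called is not given.

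The fall ran through the core and the 19S regulator. It was called in 5 of 7 alpha subunits, 4 of 4 non-catalytic and 2 of 3 catalytic beta subunits, 4 of 6 ATPases and 10 of 11 other 19S subunits. It was called in 0 of 3 immunoproteasome subunits, 0 of 3 chaperones of 19S assembly, 1 of 5 genes of other caps and the inhibitor (PSME3) and 1 of 5 chaperones of 20S assembly (POMP). The 2 alpha subunits outside the call, PSMA6 and PSMA7, had log2 fold changes of -0.43 and -0.48. PSMD4, a ubiquitin receptor, was the 19S subunit other than the ATPases outside it, at -0.43 ± 0.220 (SE). The classes were not tested against each other.

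**Figure D2:**
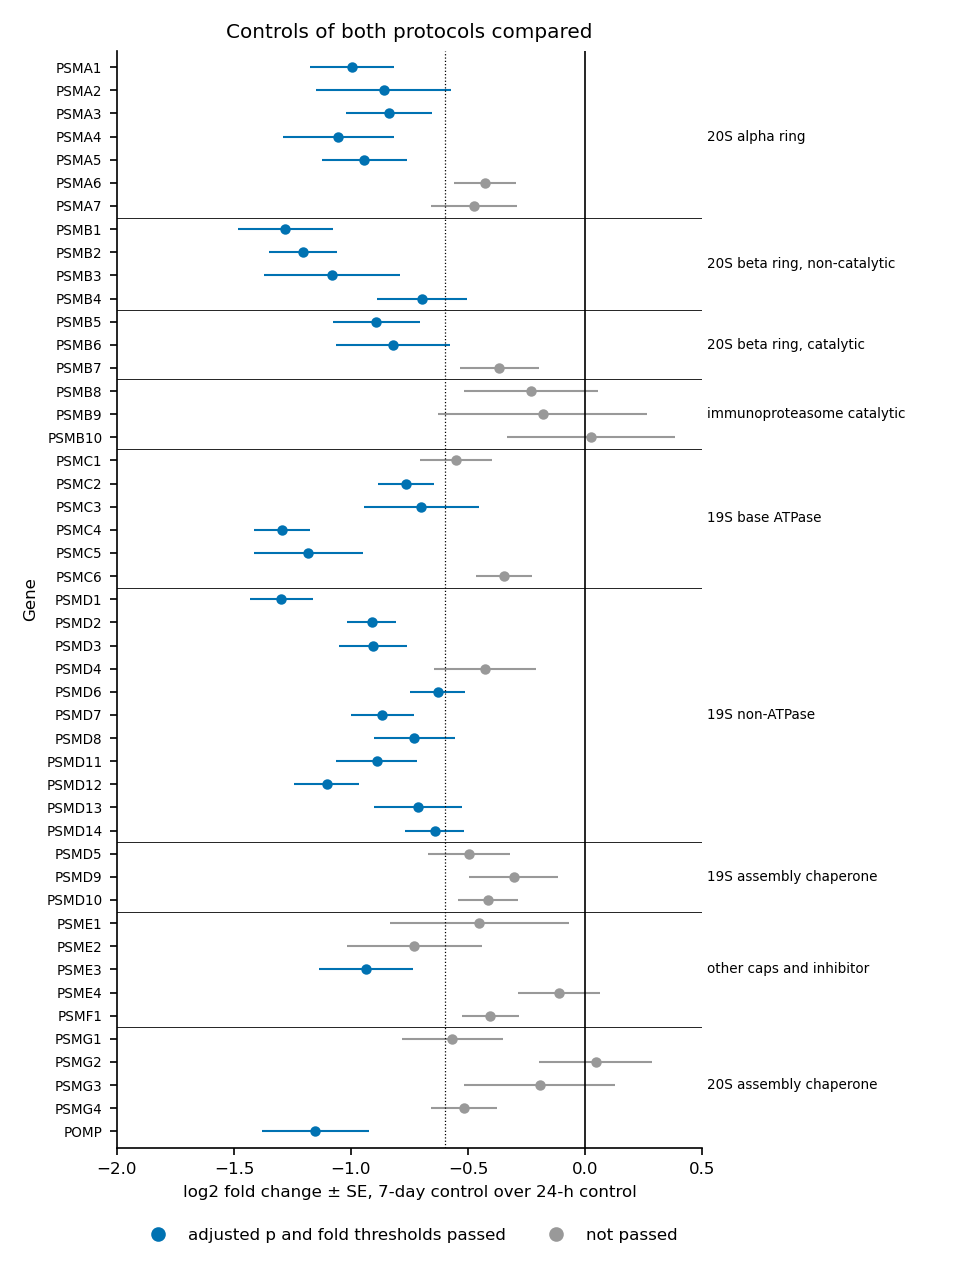
Log2 fold change ± SE of each of the 47 genes in the 7-day control over the 24-h control (3 libraries each), by class. Blue points pass the adjusted p and fold thresholds, grey points do not, and the dotted line marks -0.6. All 27 blue points lie left of the dotted line, and the 3 immunoproteasome subunits lie between -0.23 and 0.03.

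PSMD1, a scaffold subunit of the 19S base, had 265, 230 and 283 CPM in the 24-h controls of experiments 1 to 3 and 104, 105 and 108 CPM in the 7-day controls. The groups were far apart, and the log2 fold change was -1.30 ± 0.135 (SE; edgeR adjusted p = 2.45e-05). PSMC4, an ATPase of the base, had 70.0, 66.5 and 78.8 CPM at 24 h and 30.0, 28.3 and 29.4 CPM at 7 days. Its log2 fold change was -1.29 ± 0.119 (edgeR adjusted p = 1.07e-05), and another ATPase, PSMC5, stood at -1.18. PSMC5 shared 19.5% of its exon bases with FTSJ3 on the other strand.

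In the beta ring, PSMB1 had 233, 264 and 275 CPM at 24 h and 101, 104 and 113 CPM at 7 days. It fell by 1.28 on the log2 scale (SE 0.201, edgeR adjusted p = 0.000468). PSMB2 and PSMB3, of the same ring, fell by 1.20 and 1.08. PSMB4 fell by 0.70, the smallest change of the 4 non-catalytic beta genes. In the alpha ring the called changes ran from -0.84 for PSMA3 to -1.05 for PSMA4, with -0.86 for PSMA2, -0.94 for PSMA5 and -0.99 for PSMA1.

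PSMB5, which carries the chymotrypsin-like site, had 195, 213 and 232 CPM in the 24-h controls and 121, 110 and 113 CPM in the 7-day controls. The groups did not overlap, and it fell by 0.89 (SE 0.186, edgeR adjusted p = 0.00293). PSMB6, with the caspase-like site, had 158, 219 and 188 CPM against 110, 103 and 107 CPM and fell by 0.82 (SE 0.244, edgeR adjusted p = 0.0220). PSMB7, with the trypsin-like site, had 210, 248 and 249 CPM against 192, 174 and 183 CPM. Its groups did not overlap either, but the log2 fold change of -0.37 ± 0.169 did not pass (edgeR adjusted p = 0.121).

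The subunits that replace them showed no such separation. PSMB8 had 21.01, 33.5 and 27.2 CPM in the 24-h controls and 23.8, 22.7 and 23.1 CPM in the 7-day controls. PSMB9 had 19.4, 38.3 and 21.8 CPM against 22.9, 24.3 and 22.96 CPM. PSMB10 had 7.83, 11.8 and 8.89 CPM against 10.2, 9.19 and 9.60 CPM. In each of them the 7-day libraries lay within the range of the 24-h controls, in which experiment 2 was the highest. Their log2 fold changes of -0.23 ± 0.287, -0.18 ± 0.447 and 0.03 ± 0.359 did not pass (edgeR adjusted p = 0.585, 0.795 and 0.964), with SEs that were wide beside those of the core subunits. Without the experiment 2 libraries PSMB9 turned to 0.16.

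Among the 19S subunits without ATPase activity, PSMD12 of the lid had 210, 162 and 234 CPM at 24 h and 96.04, 90.9 and 94.8 CPM at 7 days, a log2 fold change of -1.10 ± 0.137 (edgeR adjusted p = 8.43e-05). Apart from PSMD1, described above, the other called 19S subunits without ATPase activity fell less than PSMD12. PSMD2 fell by 0.91, PSMD3 by 0.91, PSMD11 by 0.89, PSMD7 by 0.87, PSMD8 by 0.73 and PSMD13 by 0.71. PSMD14, the deubiquitinase of the lid, fell by 0.64 and PSMD6 by 0.63. The remaining ATPases in the call, PSMC2 and PSMC3, fell by 0.77 and 0.70.

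POMP, the chaperone that starts assembly of the beta ring, had 179, 198 and 228 CPM in the 24-h controls and 91.4, 86.2 and 94.3 CPM in the 7-day controls. It fell by 1.15 (SE 0.230, edgeR adjusted p = 0.00223). The PSMG1 to PSMG4 chaperones, which build the alpha ring, were outside the call. PSME3, the nuclear PA28 gamma cap, had 257, 137 and 258 CPM against 115, 110 and 115 CPM and fell by 0.94 (SE 0.202, edgeR adjusted p = 0.00374). The other caps and the inhibitor PSMF1 did not pass both thresholds, with PSME2 at -0.73 ± 0.288 (edgeR adjusted p = 0.0734) and PSME4, or PA200, at -0.11 ± 0.176 (edgeR adjusted p = 0.677).

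Genes around the proteasome moved less uniformly. Of 31 such genes 29 were tested, and 6 were lower and 0 higher. These were SEM1 (-1.09), a small lid subunit, USP14 (-0.64), a deubiquitinase on the proteasome, PAAF1 (-0.72), which binds 19S ATPases, VCP (-1.44), the segregase that extracts ubiquitylated proteins, UBB (-0.88), a ubiquitin gene, and UBA1 (-0.89), the main ubiquitin-activating enzyme. The median over the 29 was -0.08. NFE2L1 had 348, 324 and 343 CPM in the 24-h controls and 509, 491 and 502 CPM in the 7-day controls, and rose by 0.57 (SE 0.133, edgeR adjusted p = 0.00631), below the fold threshold. NFE2L2, the oxidative stress factor of the same family, fell by 0.40 (SE 0.105, edgeR adjusted p = 0.0109), also below the fold threshold. Of 12 class I antigen processing and interferon genes 11 were tested, IRF9 (0.64) was among those called higher, 0 were lower, and the median was 0.42.

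The labels' library names fall in consecutive runs, of which 1, of 8 libraries, holds both protocols. Within it, 1 7-day control was set against the mean of 2 24-h controls, of experiments 2 and 3. By that ratio 47 of 47 members were lower at 7 days, with a median log2 ratio of -0.75, while 49.1% of all genes were lower. Against the 24-h control of experiment 3 alone, PSMB9, PSMB10 and PSMG2 were higher. They had 22.88, 10.19 and 86.54 CPM at 7 days against 21.82, 8.893 and 77.45 CPM. The epithelial markers also differed between the controls of the protocols. KRT19, EPCAM, CDH1 and TP63 were higher and KRT8 and KRT18 lower, while the sum of the 7 ran from 2004 to 2522 CPM at 24 h and from 2270 to 2784 CPM at 7 days. The sum of the 5 fibroblast markers ran from 79.5 to 121 CPM and from 75.2 to 115 CPM. The part of the marker differences in the proteasome values was not tested. In bulk RNA, fewer cells of a type and less RNA per cell cannot be told apart.

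Promoter letters were read because so many members moved together. RefSeq promoter windows on GRCh38.p14, of 250 bases before and 50 after a start, were found for 41 of the 47 members (50 windows). The core of the antioxidant response element, TGACNNNGC on either strand, lay in 15 of the 50 windows (30.0%) and in 13.3% of all 35116 windows. By gene, it lay in 15 of the 41 members with a window, among them 7 of the 25 that were lower in the 7-day control. CCAAT lay in 38.0% of the members' windows and 34.6% of all. By gene, CCAAT lay in 19 of the 41, among them 16 of the same 25. The interferon-stimulated response element (GAAA followed by any pair of bases and GAAA again) lay in 14% and 3.57%. This element was found in 7 of the 41, PSMA4, PSMB4, PSMB8, PSMB10, PSME1, PSME2 and PSMG4, among them 2 of the same 25. A match is a description of letters and does not show binding. The first 3 sequences below are from the promoters of called members with the antioxidant response element core in capitals, and the last has the interferon-stimulated response element of PSMB4 in capitals. They lie upstream of exon 1 of the deposited gene model, at chr17:38752619-38752663, chr17:39980752-39980796, chr17:67366716-67366760 and chr1:151399487-151399532, and are written in the direction of the gene (minus strand for PSMD12, plus strand for the others).
PSMB3: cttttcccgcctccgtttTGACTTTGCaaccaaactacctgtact
PSMD3: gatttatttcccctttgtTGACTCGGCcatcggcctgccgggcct
PSMD12: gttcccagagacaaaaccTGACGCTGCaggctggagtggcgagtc
PSMB4: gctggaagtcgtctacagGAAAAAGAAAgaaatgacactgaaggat

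After exposure to PM2.5 at 30 µg/cm2 for 24 h, 0 of 47 members were called in either direction by edgeR, against 8.07% of all genes. DESeq2 also called 0. The experiments did not move together. In experiment 1, 13 of 47 members were higher than in the control of the same experiment (median log2 ratio -0.10), in experiment 2 42 of 47 (0.39) and in experiment 3 5 of 47 (-0.26), while 50.1%, 53.5% and 50.2% of all genes were higher.

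**Figure D3:**
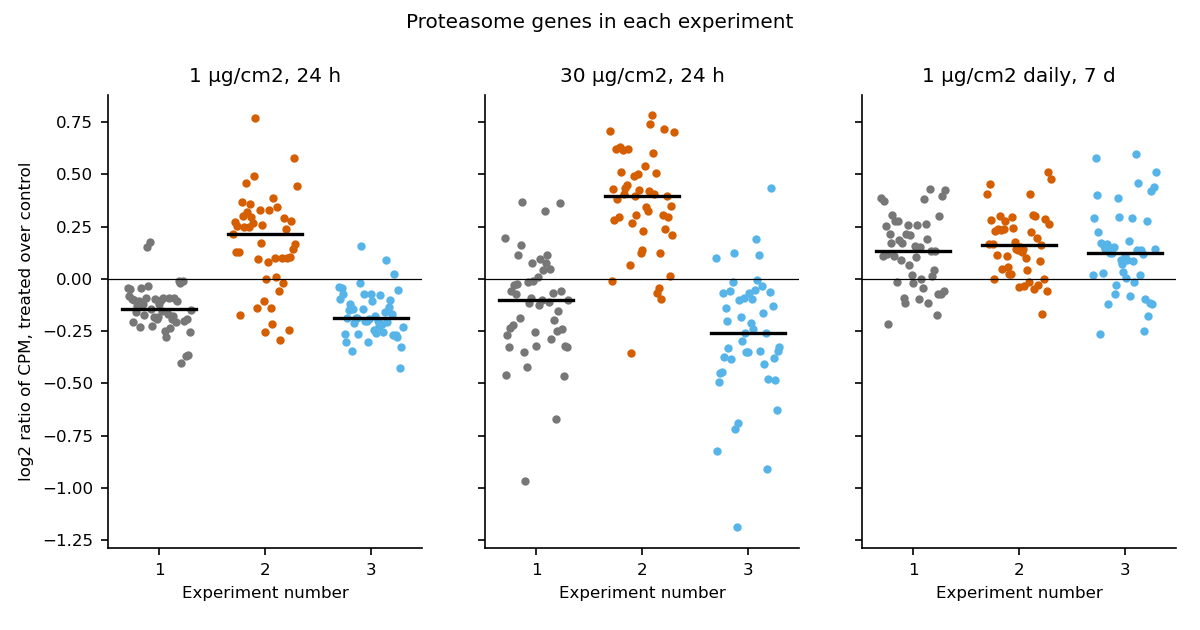
Log2 ratio of CPM, treated over the control of the same experiment, for each of the 47 genes (points) in experiments 1 to 3, with the median as a bar. At 24 h the medians of experiments 1 and 3 are below 0 and that of experiment 2 is above 0 at both doses, while at 7 days all 3 medians are above 0.

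With a replicate block by experiment number, as treated and control cells of one number belong to one experiment, PSMB9 alone was called lower after 30 µg/cm2, against 7.87% of all genes. It had 19.4, 38.3 and 21.8 CPM in the controls of experiments 1 to 3 and 9.70, 29.8 and 9.29 CPM after treatment. The groups overlapped because experiment 2 was highest in both, but each treated library was below its own control, by log2 ratios of -0.97, -0.36 and -1.19. Without the block the log2 fold change was -0.70 ± 0.451 (edgeR adjusted p = 0.389), and with it -0.85 ± 0.137 (edgeR adjusted p = 0.000596). Without the experiment 2 libraries PSMB9 stood at -1.13 ± 0.107. That fit leaves out the pair with the smallest fall and rests on experiments 1 and 3 alone. Its smaller SE follows in part from that choice.

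By adjusted p alone, the block gave 4 members higher (PSMA1, PSMB7, PSMD8 and PSME4) against 15.3% of all genes, and 4 lower (PSMA2, PSMB9, PSME1 and PSMG2) against 14.4%. PSME1, a PA28 subunit, had 170, 315 and 203 CPM in the controls and 106, 295 and 108 CPM after 30 µg/cm2, lower in 3 of 3 experiments. Its log2 fold change was -0.43 ± 0.383 without the block (edgeR adjusted p = 0.551) and -0.56 ± 0.125 with it (edgeR adjusted p = 0.00507). PSMA2 had 15.5, 22.9 and 19.03 CPM against 11.1, 22.8 and 10.5 CPM, a log2 fold change of -0.37 ± 0.286 without and -0.43 ± 0.136 with the block (edgeR adjusted p = 0.491 and 0.0292).

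PSMB7 and PSMD8 were the 2 members whose treated libraries all lay above the controls, against 11.7% of all genes. PSMB7 had 210, 248 and 249 CPM in the controls and 271, 381 and 271 CPM after 30 µg/cm2, a log2 fold change of 0.39 ± 0.169 without the block (edgeR adjusted p = 0.179) and 0.37 ± 0.10 with it (edgeR adjusted p = 0.0155). PSMD8, a lid subunit, had 241, 261 and 273 CPM against 302, 437 and 312 CPM, 0.44 ± 0.173 without and 0.41 ± 0.111 with the block (edgeR adjusted p = 0.136 and 0.0146). PSMA1 had 38.0, 43.98 and 45.8 CPM against 43.6, 72.03 and 49.1 CPM, higher in 3 of 3 experiments, with 0.37 ± 0.178 without the block (edgeR adjusted p = 0.234).

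The other catalytic subunits and POMP followed experiment 2. PSMB5 had 171, 288 and 178 CPM after 30 µg/cm2 and PSMB6 177, 299 and 185 CPM, with log2 fold changes over control of -0.01 ± 0.187 and 0.23 ± 0.242. POMP had 167, 321 and 182 CPM, and its change turned from 0.15 to -0.24 without experiment 2. PSMB8 had 16.4, 35.1 and 16.3 CPM, and PSMB10 5.72, 14.2 and 5.32 CPM, so that both were below their controls in experiments 1 and 3 and above them in experiment 2.

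Without the experiment 2 libraries, 4 of 47 members were called lower after 30 µg/cm2 (PSMA2, PSMB9, PSMB10 and PSME1), a share near the 9.95% of all genes, and 0 higher. By adjusted p alone, 18 were lower, against 20.5% of all genes, and 2 were higher (PSMD8 and PSME4), against 17.8%. The 18 held 3 of 3 immunoproteasome subunits and 4 of 5 chaperones of 20S assembly, but 1 of 6 ATPases. Leaving out the 30 µg/cm2 library of experiment 2 alone gave 5 lower (PSMA2, PSMB8, PSMB9, PSME1 and PSMG2), against 8.14% of all genes. Of the 31 surrounding genes, 0 were called in the full fit, and NGLY1, which encodes the deglycosylase that processes NFE2L1, was among those that rose by adjusted p alone, by 0.37. Of the 11 tested interferon genes, 0 were called and the median was -0.14. Of the epithelial markers, KRT5, KRT8, KRT19 and CDH1 fell, the sum of all 7 running from 843 to 1309 CPM after treatment, and of the fibroblast markers PDGFRB fell. The part of these in the proteasome values was not tested.

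**Figure D4:**
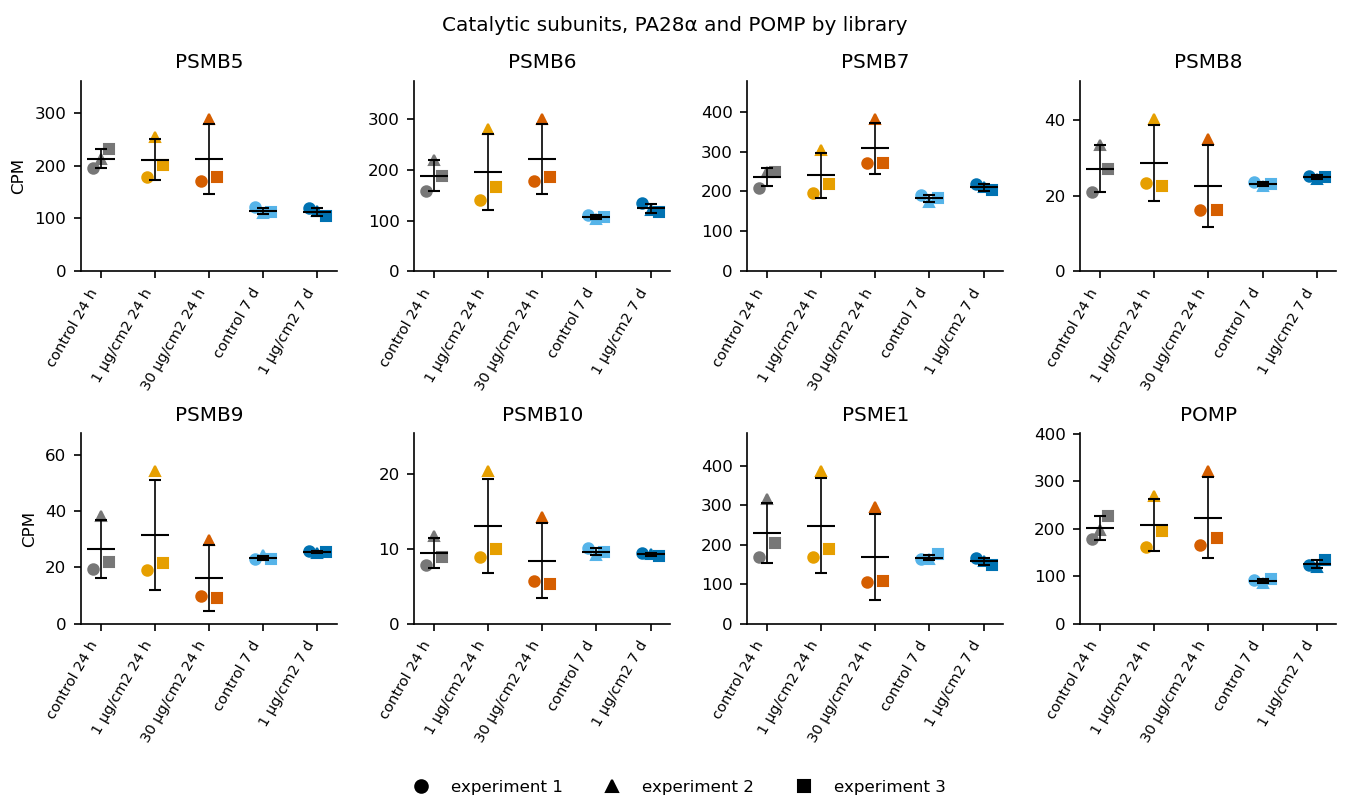
CPM of the catalytic subunits, PSME1 (PA28α) and POMP in each library, by condition (colour) and experiment (symbol), with the group mean and SD (n = 3). PSMB5, PSMB6 and POMP are lower in both 7-day groups than in the 24-h control, while PSMB8, PSMB9 and PSMB10 of the 7-day groups lie within the range of the 24-h controls, and experiment 2 (triangles) is highest in each 24-h group of all 8 genes except the PSMB5, PSMB7 and POMP controls.

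After 1 µg/cm2 for 24 h, 0 of 47 members were called by edgeR or DESeq2, against 0.0625% of all genes called by edgeR. This group shares its controls with the 30 µg/cm2 group. In experiments 1, 2 and 3, 2, 36 and 3 of 47 members were above their control, with median log2 ratios of -0.14, 0.21 and -0.19. Of all genes, 50.1%, 47.3% and 48.0% were higher. The highest estimates were PSMB10 (0.46 ± 0.359), PSMB9 (0.25 ± 0.447) and PSME1 (0.11 ± 0.382), and in each the treated library of experiment 2 was the highest. PSMB10 had 8.91, 20.4 and 9.97 CPM after 1 µg/cm2, PSMB9 19.01, 54.2 and 21.5 CPM and PSME1 168, 386 and 189 CPM. The last turned to -0.05 and PSMB9 to -0.02 without that experiment. The lowest were PSME3 (-0.23 ± 0.201), with 194, 147 and 214 CPM, PSMD7 (-0.23 ± 0.132), with 72.5, 67.4 and 90.6 CPM against 88.1, 78.3 and 104 CPM in the controls, and PSMD6 (-0.22 ± 0.115), with 117, 108 and 128 CPM against 140, 119 and 153 CPM. PSMD6 and PSMD7 were below their control in 3 of 3 experiments, and neither passed (edgeR adjusted p = 1).

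Set against 1 µg/cm2, 30 µg/cm2 for 24 h gave 0 calls among the 47 members by edgeR and DESeq2, against 7.84% of all genes by edgeR. In 7 members all libraries of the higher dose lay above those of the lower, a share near the 11.5% of all genes. These were PSMA6, PSMD6, PSMD7, PSMD11, PSMD12, PSMD14 and PSME3. In PSMA6, PSMD6, PSMD7 and PSMD14 the nearest libraries of the groups almost touched, for PSMD7 at 90.86 and 90.58 CPM and for PSMD6 at 129.5 and 128 CPM. With the replicate block 3 members were called lower at the higher dose, against 8.58% of all genes, and 0 higher. By adjusted p alone 6 were lower, against 14.9% of all genes, and 7 were higher (PSMB7, PSMD7, PSMD8, PSMD12, PSMD14, PSME3 and PSME4), against 16.6%. The 3 called were PSMB9 (-0.99 ± 0.137), PSMB10 (-0.66 ± 0.161) and PSME1 (-0.61 ± 0.125), with edgeR adjusted p-values of 0.000193, 0.00783 and 0.00284, lower in 3 of 3 experiments.

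Daily exposure to 1 µg/cm2 gave a small upward shift at 7 days. By edgeR and by DESeq2, 0 of 47 members were called, against 0.227% of all genes by edgeR. In 30 of 47 members, however, the 3 treated libraries all lay above the 3 controls, against 21.3% of all genes. In 1 (PSME4) all lay below. The share of all genes in that direction is not given, so this count cannot be weighed. The median log2 fold change was 0.15 over the members and 0.01 over all genes. In experiments 1, 2 and 3, 34, 38 and 36 members were above their control, while 49.8%, 50.8% and 49.1% of all genes were higher. This comparison uses the same 7-day controls as that of the protocols, in which the members were low. In treated 7-day libraries 1 to 3, the median log2 level of the members was -0.63, -0.53 and -0.53 relative to the 24-h control mean. The median over all genes was 0.02, 0.04 and 0.04.

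POMP had 91.4, 86.2 and 94.3 CPM in the 7-day controls and 122.9, 120 and 134 CPM after daily exposure, a log2 fold change of 0.47 ± 0.228 (edgeR adjusted p = 0.435). PSMA3 of the alpha ring had 122, 114 and 119 CPM against 158, 156 and 178 CPM (0.47 ± 0.183, edgeR adjusted p = 0.321). PSMD12 had 96.04, 90.9 and 94.8 CPM against 125, 121 and 144 CPM (0.47 ± 0.136, edgeR adjusted p = 0.175). In all 3 the groups were apart by more than the spread within them, while the model shared by all 15 libraries took its spread also from the 24-h libraries. With the replicate block PSMA3 and PSMD12 rose by adjusted p alone (edgeR adjusted p = 0.0476 and 0.0140), against 4.89% of all genes.

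In a fit of the 6 7-day libraries alone, 19 members were higher by adjusted p alone, against 13.5% of all genes, and 0 passed the fold threshold. They included POMP (0.48 ± 0.0650), PSMA3 (0.48 ± 0.0661), PSMD12 (0.47 ± 0.0730) and PSMG3 (0.46 ± 0.0647), with edgeR adjusted p-values of 0.000826, 0.000934, 0.00144 and 0.00100. With the block in that fit 24 were higher, against 17.5% of all genes, and 1, PSME4, was lower, against 19.2%. Of the catalytic subunits, PSMB6 had 134, 121 and 116 CPM after daily exposure and PSMB7 219, 210 and 203 CPM, and both were among the 19, with 0.22 and 0.21. PSMB5 had 120, 114 and 104 CPM, with -0.03 ± 0.186 in the shared fit. PSMB8 had 25.3, 24.5 and 25.1 CPM and PSMB9 25.9, 25.3 and 25.6 CPM, both above all 3 controls, and PSMB10 had 9.53, 9.36 and 9.11 CPM, overlapping them.

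PSME4 had 102, 106 and 109 CPM in the 7-day controls and 90.7, 94.6 and 96.5 CPM after daily exposure, -0.17 ± 0.176 in the shared fit (edgeR adjusted p = 0.752). PSMA6 had 17.3, 16.4 and 19.8 CPM against 14.8, 16.3 and 16.4 CPM (-0.17 ± 0.133), and PSME1 164, 163 and 176 CPM against 166, 160 and 148 CPM (-0.09 ± 0.382). These were the 3 lowest estimates and their groups overlapped for PSMA6 and PSME1. Of the surrounding genes 0 of 29 and of the interferon genes 0 of 11 were called. The 11 interferon genes all had negative estimates, with a median of -0.14. Of the epithelial markers KRT5 and TP63 fell, and the sum of all 7 ran from 1411 to 1561 CPM after daily exposure.

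The response at 7 days was not shown to differ from the responses at 24 h. In the test of the difference, 0 of 47 members were called by edgeR or DESeq2 against 1 µg/cm2 (0.0% of all genes) and 0 against 30 µg/cm2 (1.82% of all genes). Against 30 µg/cm2, the replicate block called 2 members, PSMA2 and PSMB9, whose response at 7 days was the higher, against 6.79% of all genes. Without the experiment 2 libraries 4 members were called against 1 µg/cm2 (PSMD12, PSMG1, PSMG3 and POMP), where 4.11% of all genes were called higher, and 9 against 30 µg/cm2 (PSMA2, PSMA3, PSMA4, PSMB8, PSMB9, PSME1, PSMG1, PSMG3 and POMP), where 11.0% were, all in the same direction.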

How the data were processed

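mRNA of 15 BEAS-2B libraries was sequenced as single-end reads of 50 bases. The authors aligned the reads with STAR, counted them per gene with featureCounts and deposited raw counts without normalization. The strand setting, annotation and options of the counting are not given in the sources used here. The submitters' processing notes name hg19 and the methods GRCh38. All 33424 gene identifiers of the same version as in GENCODE 44 had its GRCh38 coordinates, so the table is on GRCh38. Genes were named from GENCODE, and the 47 members by symbol.

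Counts were analysed with edgeR 4.0.16 in R 4.3.3. Genes were kept by filterByExpr (17599 genes), libraries were scaled by TMM, and a quasi-likelihood model (legacy mode) with 1 mean per condition was fitted to all 15 libraries. P-values were adjusted over all genes tested by Benjamini-Hochberg, and genes were called at 0.05 with a log2 fold change of 0.6 or more in size. Each SE is the estimate over the root of its F statistic. CPM are TMM-scaled, and RPKM divide them by the exon length in the deposited table. Ratios within an experiment used a pseudocount of 0.5 CPM. Total counts ran from 21460981 to 34724765 per library.

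Replicate numbers mark experimental batches in the series record, separately in each protocol, so a block could be fitted within a protocol but not between the controls. Deviations from the group means correlated at 0.62 on average between 24-h libraries of the same number (lowest 0.27) and at 0.23 between 7-day libraries (lowest 0.18), and at -0.25 and -0.11 between different numbers. Alternatives were RLE and upper-quartile scaling, no filter or 1 CPM in 3 libraries, DESeq2 1.42.0, the current mode of edgeR, the groups compared alone, the block, no 24-h libraries of experiment 2, and each library left out. The groups alone with the block were added after seeing the data. The code of the fits was also run on simulated counts. These had the same setting of spread for all genes, unlike the data, so that run is no measure of error here.

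The members, gene lists and comparisons were chosen with earlier results of these data known. Values in every library are given for the catalytic subunits, POMP and the 3 largest rises and falls after each treatment. Members described beyond these, the called members of the comparison of controls among them, were chosen after their values were seen. A few genes of the other lists are not reported here.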

Additional observations from a re-analysis of the deposited data

How the results depend on the processing

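The 27 members lower in the 7-day control came to 26 to 28 under the scaling, filter, tool and group alternatives, to 29 without the 24-h libraries of experiment 2, and to 22 to 27 with 1 library left out. By adjusted p alone 34 became 22 without the 7-day control of experiment 2. No paired analysis was possible between these controls because the replicate numbers mark different experiments in each protocol. The counts for PM2.5 at 24 h depended on experiment 2 and on the replicate block. For 30 µg/cm2 against control, 0 lower became 1 with the block over all libraries or over the groups compared, 4 without experiment 2, and 0 to 5 with 1 library left out. For 30 against 1 µg/cm2, 0 lower became 3 with either block and 4 without experiment 2, and 1 library left out gave 0 to 6 lower (6 without the 30 µg/cm2 library of experiment 2) and 0 to 1 higher (1 without the 1 µg/cm2 library of experiment 2). For the response at 7 days minus that to 1 µg/cm2, 0 higher became 1 (PSMD12) with the block over the groups compared and 4 without experiment 2. For that minus the response to 30 µg/cm2, 0 higher became 2 with the block, 1 (PSMB9) with the block over the groups compared, 9 without experiment 2, and 0 to 1 with 1 library left out (PSMA3 without the 30 µg/cm2 library of experiment 2). The cause was not tested. The block changed no other call at both thresholds.

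Log2 fold changes near 0 changed sign. Without experiment 2, PSMB9 and PSME1 went to -0.015 and -0.051 after 1 µg/cm2, POMP to -0.24 after 30 µg/cm2, and PSMB9 to 0.16 between the controls. PSMB5 after daily exposure went to 0.002 with upper-quartile scaling. With 1 library left out, the ranges after 1 µg/cm2 were -0.0041 to 0.69 for PSMB10, -0.39 to 0.63 for PSMB9 and -0.36 to 0.43 for PSME1. After 30 µg/cm2 they were -0.22 to 0.30 for POMP, -0.78 to 0.075 for PSMB10, -0.29 to 0.11 for PSMB5 and -0.062 to 0.35 for PSMB6. PSMB5 ran from -0.075 to 0.025 after daily exposure. Between the controls PSMB10 ran from -0.13 to 0.19 and PSMB9 from -0.40 to 0.16. Each library held at least 21460981 counted reads. In the shared fit the median SE of a member was 0.182 for either 24-h dose against control and 0.183 for daily exposure.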
